A study of Lytechinus variegatus with 8 samples.

Results

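Sea urchins rely on innate immunity, and 3 groups of proteins stand at its front: complement, the lectins and the antimicrobial effectors. Complement C3 carries a reactive thioester with which it can bind covalently to a microbe and mark it for engulfment, and the factor B family supplies the protease that activates C3. C-type lectins and galectins bind sugars on cell surfaces, while lysozymes, peptidoglycan-recognition proteins and glucan-binding proteins recognise or digest the cell walls of bacteria and fungi. In sea urchins these proteins are best known from coelomocytes, the wandering immune cells of the body cavity. The genes described here are those of the Lytechinus variegatus gene table whose product name holds one of these terms (complement components and factors, alpha-2-macroglobulin and CD109, mannose receptors, C-type lectins, echinoidin, lectin BRA, galectin, lysozyme, bactericidal permeability-increasing protein, peptidoglycan-recognition protein and beta-1,3-glucan-binding protein). Names with perlucin, spicule or collagen were left out. The rule took 99 of 26814 genes and used no measured value.

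Bulk messenger RNA was sequenced from secondary spines (4 libraries, 100 spines each) and primary spines (4 libraries, 50 spines each). Both kinds came from the same 4 wild-caught animals, labelled wild type and all of a single color morph, white and green. Replicate numbers were taken to mark the animal. Total counts were 9252184 to 10902546 per library. A spine is a mixed tissue of epidermis, muscle, nerve, skeletogenic and wandering cells, so fewer cells of a type and less RNA per cell cannot be told apart in these values.

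The 99 genes fell into 6 roles by name. There were 6 thioester protein names, 15 further complement names, 19 mannose receptor names, 38 other C-type lectin names, 3 galectin names and 18 antimicrobial and recognition names. Of these 99 genes, 5 had no read in any library and 27 had fewer than 10 over all 8. The filter on low counts let 50 through to the tests, and 49 were not tested. The 49 had at most 204 reads in all, with a median of 9, while the tested members had at least 169. The largest families were echinoidin-like genes, with 25 members, and macrophage mannose receptor 1-like genes, with 14. Echinoidin is a C-type lectin first known from sea urchin body fluid. A product name was shared with another member by 75 genes, and how the counting handled reads matching more than one gene is not stated, so values of close copies are uncertain.

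The deposited domain annotation went with most of the names but not with all. A C-type lectin domain was listed for 36 of the 38 C-type lectin names and for all 19 mannose receptor names. The domains of the alpha-2-macroglobulin family were listed for 5 of the 6 thioester names. The sixth, alpha-2-macroglobulin receptor-associated protein-like LOC121431951, instead had the domains of the receptor-associated protein, which in vertebrates is a chaperone of lipoprotein receptors. Of the 3 galectin names only galectin-8-like LOC121418813 had a galactoside-binding lectin domain, and the other 2, galectin-3-binding protein B-like genes, had a scavenger receptor cysteine-rich domain. Of the 15 further complement names 3 had a trypsin domain, 6 a C1q domain and 3 no listed domain. Complement component 1 Q subcomponent-binding protein, mitochondrial-like LOC121408166 had a mitochondrial glycoprotein domain instead. All 9 lysozyme genes had the destabilase domain of invertebrate-type lysozymes.

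The 99 genes together took 0.511% to 0.755% of the counts in secondary libraries and 0.628% to 0.760% in primary libraries. Their summed level was 6023 ± 1032 TMM-scaled CPM, counts relative to library size, in secondary spines and 7281 ± 747.6 CPM in primary spines (SD, n = 4 each), and the libraries of the 2 kinds overlapped. Most of it was thioester proteins, at 3764 ± 905.5 CPM in secondary spines and 4322 ± 494.2 CPM in primary spines. Between genes, levels are compared per length, as TMM-scaled RPKM, the CPM divided by the gene length in kilobases.

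The highest level per length was that of complement C3-like LOC121417165 on chromosome 6 (20132659 to 20243437, minus strand, assembly Lvar_3.0), which averaged 382.2 ± 129.7 RPKM in secondary spines and 403.2 ± 87.26 RPKM in primary spines. It ranked 29th of 23786 genes with reads by mean CPM and 132nd by mean RPKM. In CPM it had 1703, 2136, 3473 and 1975 in secondary libraries 1 to 4, against 2757, 2671, 2713 and 1656 in primary libraries 1 to 4. The values interleave, and 2 of 4 animals were lower in secondary spines. The log2 fold change of secondary over primary was -0.08 ± 0.26 (SE), with a Benjamini-Hochberg adjusted p of 0.946 by the quasi-likelihood test in edgeR, which gave every adjusted p below.

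Next came a lysozyme-like gene of the invertebrate type, LOC121426535, at 225.1 ± 38.56 RPKM in secondary spines and 301.1 ± 68.82 RPKM in primary spines. Galectin-8-like LOC121418813 followed at 177.7 ± 7.99 RPKM in secondary spines and 266.4 ± 49.77 RPKM in primary spines. Echinoidin-like LOC121416554 and complement C2-like LOC121428574 had almost the same mean over all 8 libraries, 152.4 and 152.1 RPKM, which differ by less than the spread of either. Complement C2-like LOC121428574 had von Willebrand factor A, sushi and trypsin domains, the layout of the C2 and factor B proteases. A complement factor B-like gene with the same 3 domains, LOC121429261, lies 6932 bases away on chromosome 15, and both were measured in every library. Neither gene has a complement protein as its best listed match. For LOC121428574 it is sushi, von Willebrand factor type A, EGF and pentraxin domain-containing protein 1. For LOC121429261 it is serine protease 30.

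**Figure D1:**
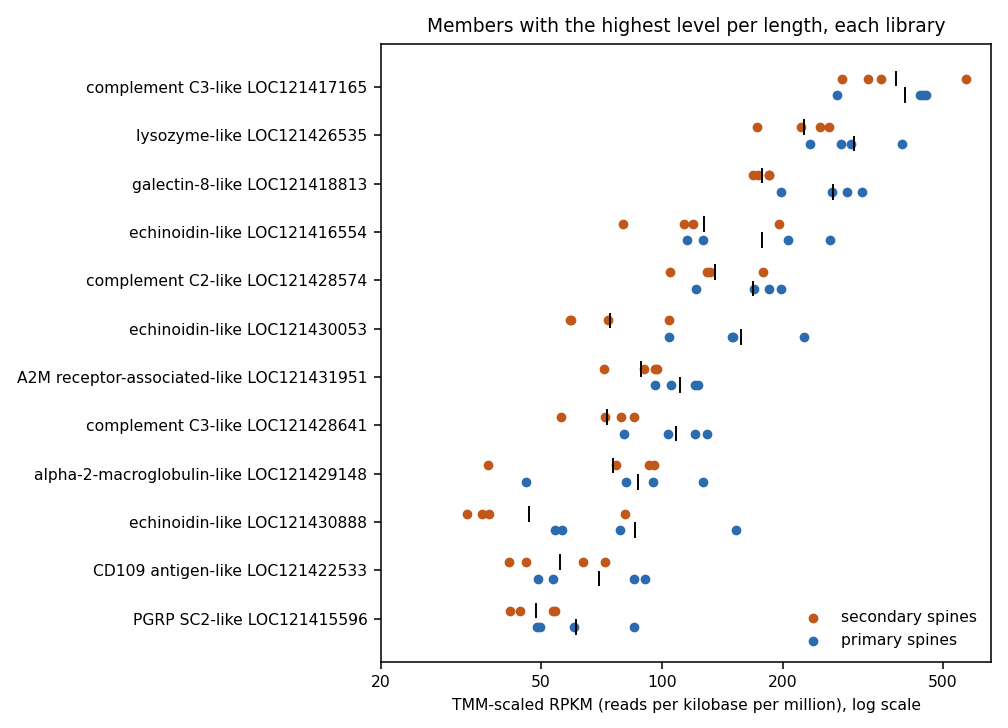
TMM-scaled RPKM (log axis) of the 12 members with the highest mean, in each secondary library (orange) and each primary library (blue), with black ticks for the group means. Complement C3-like LOC121417165 leads, and the 2 kinds of spine overlap for most genes, while galectin-8-like LOC121418813 is lower in each secondary library than in any primary library.

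Several textbook parts of the cascade had few reads. The 3 complement factor H-like genes, named for a brake on C3 activation, had 1, 4 and 39 reads in secondary libraries and 2, 6 and 30 reads in primary libraries. The single C1q subunit C-like gene had 5 reads in secondary libraries and 1 in primary libraries, while a C1s-like gene (LOC121429012) was tested. The best listed match of LOC121429012 is enteropeptidase. Of the 9 lysozyme genes, 7 were not tested, and 3 of those 7 had no read.

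The first question was whether the effectors differed between the 2 kinds of spine. Without regard to animals, 2 of the 50 tested members were higher in secondary spines at an adjusted p below 0.05, where 5.88% of all 16788 genes were, and 3 were lower, where 1.93% of all genes were. In either direction it was 5 of 50, beside 7.81% of all genes, which is near the background. At an unadjusted p below 0.05, 3 members were higher, where 11.1% of all genes were, and 11 were lower (22.0%), where 8.19% of all genes were.

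The median log2 fold change was -0.38 over the 50 tested members and -0.03 over all genes, and 35 of 50 members (70.0%) were below 0, against 52.6% of all genes. With library size alone in place of TMM scaling the medians were -0.18 for members and 0.14 for all genes. By role, the median was -0.57 for the 18 tested C-type lectins, -0.33 for the 9 antimicrobial genes, -0.32 for the 6 thioester proteins, -0.15 for the 6 other complement genes, 0.12 for the 9 mannose receptor genes and 0.21 for the 2 galectin names. With library size alone the complement median turned to 0.02, beside 0.14 for all genes. With a correction for gene length the mannose receptor median turned to -0.07, beside -0.155 for all genes. The other 4 medians kept their sign under both.

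**Figure D2:**
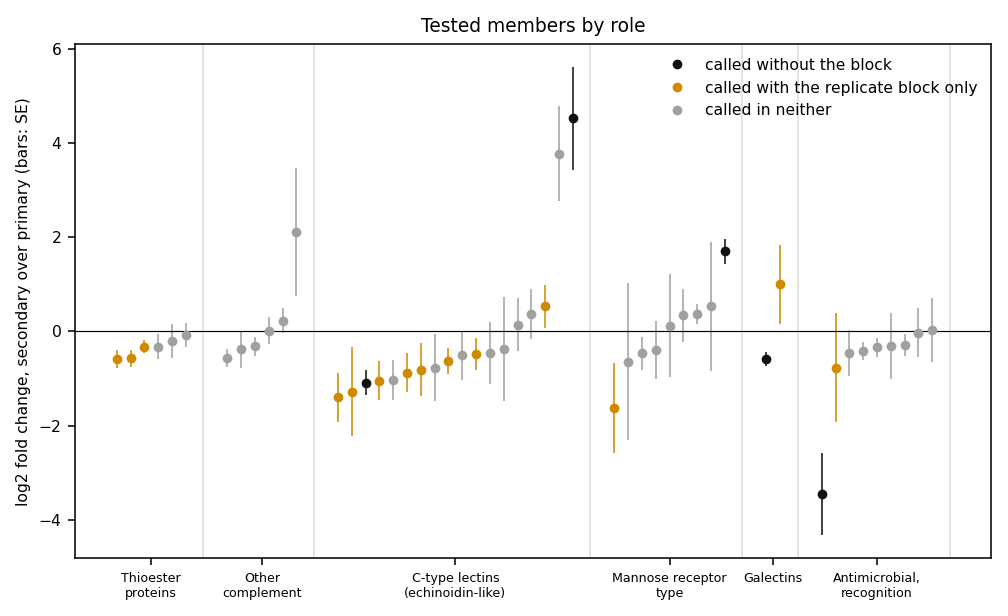
Log2 fold change of secondary over primary spines with its SE for the 50 tested members, grouped by role and ordered by size within each. Black marks the 5 calls made without the replicate block, orange the further calls made with it, and grey the members called in neither, and 13 of 18 C-type lectins and all 6 thioester proteins (5 of 6 with library size alone) sit below 0.

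When the animal was added to the fit as a replicate block, 14 members were lower in secondary spines, or 28.0% of the 50 tested, where 11.7% of all genes were. Higher calls numbered 4 of 50, where 12.4% of all genes were called higher. In either direction it was 18 of 50, or 36.0%, beside 24.1% of all genes. The spread between libraries of a kind, as edgeR's biological coefficient of variation, was 0.470 in the fit with group alone, and adding the animal brought it to 0.183.

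Among thioester proteins no member was called without the block, and 3 fell with it. All 6 had a log2 fold change below 0, between -0.58 and -0.08, and 5 of the 6 did with library size alone in place of TMM. The second complement C3-like gene, LOC121428641 on chromosome 15 (31062345 to 31125935, minus strand), had 311.1, 474.5, 439.7 and 400.2 CPM in secondary libraries 1 to 4, against 447.5, 573.9, 719.5 and 673.4 CPM in primary libraries 1 to 4. Every animal was lower in its secondary spines, although the groups overlap. The log2 fold change was -0.57 ± 0.19 (SE) with an adjusted p of 0.117 by edgeR, and with the block -0.56 ± 0.11 with an adjusted p of 0.00929. Without animal 3 the blocked adjusted p was 0.0502.

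C3 and PZP-like alpha-2-macroglobulin domain-containing protein 8 LOC121411263 on chromosome 3 is a relative of C3 and of the protease inhibitor alpha-2-macroglobulin. It had 58.46, 74.65, 64.06 and 49.19 CPM in secondary libraries 1 to 4, against 95.3, 117.6, 75.73 and 80.13 CPM in primary libraries 1 to 4. All secondary libraries were below all primary libraries. Its log2 fold change was -0.58 ± 0.19 with an adjusted p of 0.108 by edgeR, and -0.58 ± 0.11 with the block, with an adjusted p of 0.00762. This call was kept in all 4 blocked fits that left out an animal. Receptor-associated protein-like LOC121431951, not a thioester protein by its domains, averaged 112.4 ± 14.98 CPM in secondary spines and 140.8 ± 16.16 CPM in primary spines, with an adjusted p of 0.0334 with the block. That call was lost without animal 1, 2 or 3 (adjusted p 0.126, 0.108 and 0.149). Alpha-2-macroglobulin-like LOC121429148 and CD109 antigen-like LOC121422533, both of the protease-trapping family and named here after their values were seen, were lower in secondary spines of 4 of 4 animals and were called in neither fit.

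None of the 6 other tested complement genes was called in either fit. The 6 include mitochondrial-like LOC121408166 and 2 C1q tumor necrosis factor-related genes, LOC121414735 and LOC121422122. The role median is therefore not that of the complement cascade alone. Complement C2-like LOC121428574 had 386.3, 477.8, 486 and 659.6 CPM in secondary libraries 1 to 4, against 730.8, 626.2, 450.5 and 684.4 CPM in primary libraries 1 to 4. Its neighbour, complement factor B-like LOC121429261, had 71.07, 82.68, 93.46 and 79.41 CPM in secondary libraries, against 165.8, 126.9, 92.71 and 97.86 CPM in primary libraries. In both genes animal 3 had slightly more in its secondary spines, while animals 1, 2 and 4 had less. The log2 fold changes were -0.31 ± 0.20 and -0.57 ± 0.20, with adjusted p of 0.497 and 0.145 by edgeR. C1q tumor necrosis factor-related LOC121414735, named for its likeness to C1q but not a subunit of C1, had a log2 fold change of -0.38 ± 0.40 with an adjusted p of 0.733.

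The echinoidin-like family held all 18 tested C-type lectins. Without the block 1 of the 18 was higher and 1 lower, and with it 2 were higher and 8 lower. Summed over the 25 echinoidin-like genes, levels were 500.2 ± 67.1 CPM in secondary spines and 732.1 ± 126.6 CPM in primary spines (SD, n = 4 each). The lower call, echinoidin-like LOC121430053 on chromosome 16 (6332759 to 6335491, plus strand), is 1 of the 12 echinoidin-like genes whose best protein match in the deposited table is echinoidin. It had 52.06, 51.97, 64.56 and 91.45 CPM in secondary libraries 1 to 4, against 131, 132, 91.44 and 198.2 CPM in primary libraries 1 to 4. Each animal was lower in its secondary spines, and the groups touch because secondary library 4 (91.45 CPM) and primary library 3 (91.44 CPM) are level.

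The log2 fold change of LOC121430053 was -1.09 ± 0.27 with an adjusted p of 0.0454 by edgeR, and with the block -1.08 ± 0.15 with an adjusted p of 0.00250. Leaving out 1 library at a time, the call without the block was kept without secondary library 4 (adjusted p 0.0341) or primary library 3 (0.0290) and lost without any of the others, up to 0.126 without secondary library 2. The blocked call was kept without each of the 4 animals.

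A neighbour 5643 bases away, echinoidin-like LOC121429918 (named after its values were seen), moved the same way, with 5.62, 19.22, 21.85 and 7.64 CPM in secondary libraries 1 to 4, against 27.21, 60.61, 37.76 and 18.06 CPM in primary libraries 1 to 4. Its blocked log2 fold change was -1.46 ± 0.23, with an adjusted p of 0.00491 by edgeR. The neighbours on chromosome 17, echinoidin-like LOC121431065 and LOC121431197, and LOC121430888 elsewhere on that chromosome were also lower in all 4 animals. Their blocked log2 fold changes were -0.83 ± 0.12, -1.09 ± 0.13 and -0.85 ± 0.10, with adjusted p of 0.00290, 0.00142 and 0.00126. LOC121431197 and LOC121430888 have aggrecan core protein as best listed match, not echinoidin. Echinoidin-like LOC121426925 on chromosome 13 had a blocked log2 fold change of -1.39 ± 0.19 with an adjusted p of 0.00196. The calls of these 5 genes were kept in all 4 blocked fits that left out an animal. None of the 5 was called without the block, where adjusted p ran from 0.173 for LOC121429918 to 0.570 for LOC121426925.

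Echinoidin-like LOC121416554 on chromosome 6, the most abundant of the family, had 216.7, 125.8, 132.2 and 88.55 CPM in secondary libraries 1 to 4, against 290.6, 128, 227.7 and 140.2 CPM in primary libraries 1 to 4. Its best listed match is CD302 antigen, not echinoidin. The groups overlap widely, and animal 2 barely differed between its spines. The blocked adjusted p was 0.0358 by edgeR, and it passed 0.05 without animal 1, 3 or 4 (0.107, 0.147 and 0.102).

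The echinoidin-like genes with higher values in secondary spines had uneven values among animals. LOC121413901 on chromosome 4 (34283074 to 34293044, plus strand), whose best match is the mammalian lectin CLEC4E rather than echinoidin, had 40.24, 2.14, 5.16 and 10.98 CPM in secondary libraries 1 to 4, against 0.861, 1.30, 0.211 and 0.107 CPM in primary libraries 1 to 4. All secondary libraries were above all primary libraries, with the nearest values in animal 2. Secondary over primary, this was a log2 fold change of 4.53 ± 1.09 with an adjusted p of 0.0396 by edgeR, and 4.12 ± 0.86 with the block, with an adjusted p of 0.0210. The blocked call was lost without animal 1 (log2 fold change 3.28, adjusted p 0.109), 3 (0.0757) or 4 (0.0734). Without secondary library 1 the log2 fold change was 3.27 with an adjusted p of 0.0906. The call was kept without secondary library 2 (0.0301) and lost without any of the other 7 libraries, up to 0.0991 without primary library 1.

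Another CLEC4E match on the same chromosome, echinoidin-like LOC121413965, was looked at after its values were seen. It had 35.58, 5.39, 6.56 and 5.18 CPM in secondary libraries 1 to 4, against 0.108, 2.59, 0.527 and 0.534 CPM in primary libraries 1 to 4. The groups do not overlap and secondary library 1 stands highest, as for LOC121413901, but the log2 fold change of 3.78 ± 1.01 had an adjusted p of 0.0616, and 0.0555 with the block. Of the 50 tested members 3 had all secondary libraries above all primary libraries, where 9.47% of all genes did, and 2 had them all below, where 5.69% did. Echinoidin-like LOC121426953 on chromosome 13 was higher in 3 of 4 animals, with a blocked adjusted p of 0.0469 that was lost without animal 1, 3 or 4 (0.165, 0.146 and 0.117). Its gene span overlaps another gene.

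Mannose receptor genes encode lectins that in vertebrate macrophages take up sugar-bearing particles. Without the block, the smallest adjusted p between the kinds of spine among the 50 tested members was that of macrophage mannose receptor 1-like LOC121429177 on chromosome 15 (9818246 to 9825339, plus strand). It had 8.44, 8.14, 10.23 and 7.29 CPM in secondary libraries 1 to 4, against 1.83, 3.19, 2.85 and 2.56 CPM in primary libraries 1 to 4. The lowest secondary library was more than 2 times the highest primary library. On the log2 scale the fold change was 1.70 ± 0.27, with an adjusted p of 0.00608 by edgeR. It was 1.71 ± 0.22 with the block, with an adjusted p of 0.00155, and the call was kept in all 8 fits without 1 library and all 4 without 1 animal. Its level was low, at 353 reads in secondary libraries and 100 in primary libraries. The deposited table lists a C-type lectin domain for LOC121429177 but no protein match, so the mannose receptor name rests on the product name alone.

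The other 8 tested mannose receptor genes were not called without the block. LOC121420572 on chromosome 8 had 0.0970, 1.12, 1.69 and 1.32 CPM in secondary libraries 1 to 4, against 0.323, 1.79, 7.49 and 3.53 CPM in primary libraries 1 to 4. It was lower in all 4 animals, with a blocked log2 fold change of -1.49 ± 0.37 and an adjusted p of 0.0245 by edgeR. The call was lost without animal 1, 3 or 4 (0.0574, 0.168 and 0.0713). LOC121420572 also had no listed protein match, and a sushi repeat beside its C-type lectin domain. Macrophage mannose receptor 1-like LOC121410597 on chromosome 3, among the most abundant of the group, was higher in 4 of 4 animals with a log2 fold change of 0.37 ± 0.22, and had adjusted p of 0.438 without the block and 0.0611 with it. C-type mannose receptor 2-like LOC121409640 had a log2 fold change of -0.46 ± 0.35 and an adjusted p of 0.580.

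Galectin-8-like LOC121418813 on chromosome 7 (24197595 to 24231418, plus strand), a sugar-binding lectin whose best match is human galectin-4, had 395.9, 421.9, 386.5 and 422.5 CPM in secondary libraries 1 to 4, against 719.8, 660.2, 454 and 604.7 CPM in primary libraries 1 to 4. All secondary libraries were below all primary libraries, and the secondary values were closely spaced. The log2 fold change was -0.58 ± 0.15 with an adjusted p of 0.0468 by edgeR, and -0.57 ± 0.12 with the block, with an adjusted p of 0.0134. The call without the block was kept without primary library 3 (0.0143) and lost without any of the other 7 libraries, up to 0.128 without primary library 2. The blocked call was lost without animal 1 (0.0586) or animal 2 (0.0585). A gene on the minus strand, LOC121418812, overlaps its span, and it is not stated whether reads were counted by strand, so reads of the 2 genes may be mixed.

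Galectin-3-binding protein B-like LOC121420810, a scavenger receptor domain protein, had 13.28, 1.42, 4.77 and 6.85 CPM in secondary libraries 1 to 4, against 7.75, 0.698, 1.16 and 3.53 CPM in primary libraries 1 to 4. It was higher in the secondary spines of all 4 animals while the groups overlap. The blocked log2 fold change was 1.13 ± 0.26 with an adjusted p of 0.0191 by edgeR, against 0.637 without the block, and without animal 1 the blocked adjusted p was 0.0614. The second gene of that name, LOC121410506, had 11 reads in secondary libraries and 16 in primary libraries and was not tested.

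Among the antimicrobial and recognition genes 1 member was lower without the block. Beta-1,3-glucan-binding protein-like LOC121423836 on chromosome 11 (16970985 to 16999818, minus strand), of a family that binds fungal wall sugars in arthropods, had 1.26, 1.63, 0.596 and 0.351 CPM in secondary libraries 1 to 4, against 6.99, 1.20, 23.62 and 10.58 CPM in primary libraries 1 to 4. Animal 2 went the other way, and the groups overlap through it. This gave a log2 fold change of -3.46 ± 0.87 with an adjusted p of 0.0480 by edgeR, and -3.08 ± 0.92 with the block, with an adjusted p of 0.0643. The call was kept without primary library 2 (0.0130) and lost without any of the other 7 libraries, up to 0.126 without secondary library 4, and without primary library 3 the log2 fold change was -2.69.

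Peptidoglycan-recognition protein LB-like LOC121415597 on chromosome 5, of a family that in insects binds and cleaves bacterial peptidoglycan, had 1.94, 6.10, 1.79 and 32.33 CPM in secondary libraries 1 to 4, against 3.12, 10.37, 4.54 and 54.17 CPM in primary libraries 1 to 4. Each animal was lower in its secondary spines, while animal 4 stood far above the others in both kinds. The blocked log2 fold change was -0.85 ± 0.16 with an adjusted p of 0.00833 by edgeR, against 0.839 without the block, and without animal 4 the blocked adjusted p was 0.0540. The abundant lysozyme-like LOC121426535 had 134.2, 173, 192.1 and 202.3 CPM in secondary libraries 1 to 4, against 229.8, 309, 182 and 217.4 CPM in primary libraries 1 to 4, with an adjusted p of 0.281 and of 0.129 with the block. Its animal 3 was slightly higher in secondary spines. Peptidoglycan-recognition protein SC2-like LOC121415596 and bactericidal permeability-increasing protein-like LOC121407112, of the family that binds bacterial lipopolysaccharide in mammals, had log2 fold changes of -0.33 ± 0.20 and -0.29 ± 0.22, with adjusted p of 0.458 and 0.600, and 0.150 each with the block.

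**Figure D3:**
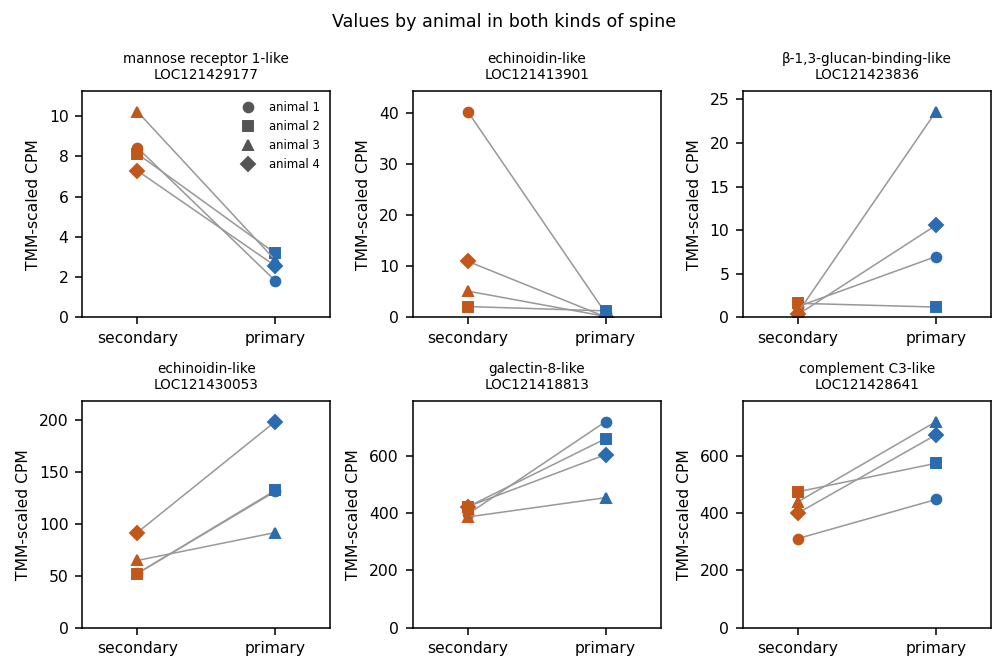
TMM-scaled CPM of the 5 members called without the replicate block and of complement C3-like LOC121428641, with a symbol for each animal and a line joining its secondary (left) and primary (right) library. All 4 lines of mannose receptor 1-like LOC121429177 and of echinoidin-like LOC121413901 fall towards primary spines, while those of galectin-8-like LOC121418813, echinoidin-like LOC121430053 and LOC121428641 all climb, and the line of animal 2 in beta-1,3-glucan-binding LOC121423836 is nearly flat.

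Some members below the filter had uneven reads, given here as counts because no test was made. The genes of this paragraph were named after their values were seen. C-type lectin-like LOC121425853 had 59 reads in secondary libraries and 2 in primary libraries, a depth-scaled ratio of 27.1 with a 95% exact interval of 7.17 to 229. Secondary library 2 held 32 of the 59 reads. Macrophage mannose receptor 1-like LOC121428973 had 179 reads in secondary libraries and 25 in primary libraries, of which 124 and 21 came from animal 2. Complement C2-like LOC121405710 had 95 of its 104 secondary reads and 54 of its 65 primary reads in animal 1. The interval covers counting error only. It takes no account of the choice of LOC121425853 for its uneven reads.

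The second question was how far the 4 animals differed. An F test of the 3 animal terms called 26 of the 50 tested members, or 52.0%, where 37.0% of all genes were called. The median range between animals was 1.52 log2 units over the members and 0.81 over all genes. By role, calls were made for 11 of the 18 C-type lectins, 6 of the 9 mannose receptors, 5 of the 9 antimicrobial genes, 2 of the 6 thioester proteins, 1 of the 6 other complement genes and 1 of the 2 galectin names. Among the 26, the animal with the highest level was the same in secondary and in primary spines for 18. The F test itself favours genes whose animals rank alike in both kinds, so the 18 is no separate result. Over all 50 tested members, called or not, the same animal was highest in both kinds for 54.0%, beside 56.8% of all genes. Of the 26 genes, 1 was also called between the kinds of spine without the block, echinoidin-like LOC121430053.

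Macrophage mannose receptor 1-like LOC121406086 on chromosome 19 (8230798 to 8244645, plus strand) had 0, 3.86, 30.29 and 2.02 CPM in secondary libraries 1 to 4, against 0, 3.19, 48.52 and 4.81 CPM in primary libraries 1 to 4. The best listed match of LOC121406086 is asialoglycoprotein receptor 1, not a mannose receptor. Animal 1 had no read in either library, while animal 3 had 765 in all. Set against a floor of 3 reads for animal 1, animal 3 was at least 256-fold higher, and the adjusted p of the animal terms was 0.000333 by edgeR. Macrophage mannose receptor 1-like LOC121410596 on chromosome 3 also stood highest in animal 3, with 9.60, 2.24, 48.96 and 7.29 CPM in secondary libraries 1 to 4, against 7.64, 2.99, 47.36 and 4.59 CPM in primary libraries 1 to 4. Animal 3 was 18.4 times animal 2 (95% interval 13.9 to 24.8, counting error only), with an adjusted p of 0.000125.

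Peptidoglycan-recognition protein LB-like LOC121415597, with the values above, was 16.9 times higher in animal 4 than in animal 1 (12.7 to 23.0), with an adjusted p of 6.71e-05. Echinoidin-like LOC121426925 had 9.79, 15.46, 3.77 and 0.703 CPM in secondary libraries 1 to 4, against 27.86, 29.41, 12.66 and 2.14 CPM in primary libraries 1 to 4. Animal 4 was lowest in both kinds and animal 2 highest, a ratio of 16.7 (11.4 to 25.4), with an adjusted p of 0.000338. Animal 2 was also above animal 4 for echinoidin-like LOC121431065, by 4.76 times (4.20 to 5.41), and for echinoidin-like LOC121430888, by 2.70 times (2.52 to 2.90), with adjusted p of 0.000520 and 0.000882. Without animal 2 the adjusted p of LOC121430888 was 0.242. A pair on chromosome 3 was added after its values were seen: macrophage mannose receptor 1-like LOC121410331 had 490 reads in animal 1 and 4 in animal 2, a ratio of 124 (48.2 to 457), and LOC121410332, whose span overlaps 2 other genes, was also lowest in animal 2.

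No animal was high throughout. Animal 1 was highest for 6 of the 26 genes, animal 2 for 11, animal 3 for 7 and animal 4 for 2, and the lowest values came from the same animals for 7, 6, 2 and 11 genes.

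**Figure D4:**
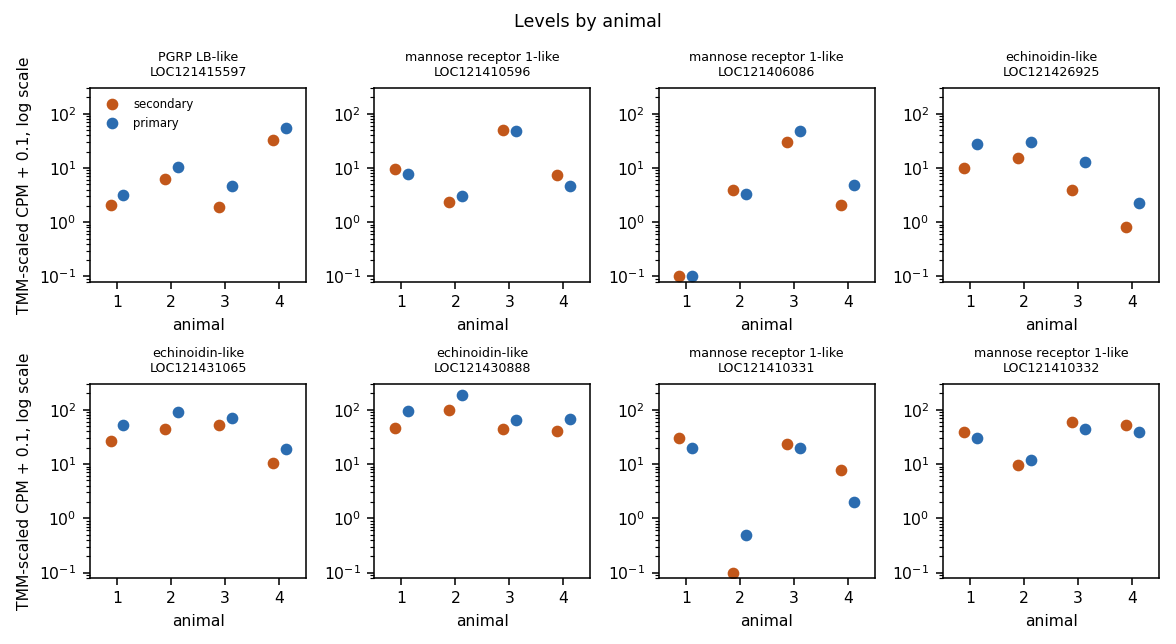
TMM-scaled CPM plus 0.1 (log axis) by animal for the 6 members named for the animal comparison and for the pair LOC121410331 and LOC121410332, with secondary libraries in orange and primary libraries in blue. Animal 3 stands highest in both kinds of spine for LOC121406086 and LOC121410596 and animal 4 for LOC121415597, and LOC121406086 has 0 reads in both libraries of animal 1.

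Many members lie next to each other. With gaps under 100 kb between gene spans, 43 of the 99 formed 21 groups, and in 10 of these groups 2 members were tested. The log2 fold changes of the pair had the same sign in 8 of the 10. Both members were called between animals in 5 pairs, only 1 in 4 pairs, and neither in the complement C2-like and factor B-like pair. Of the 50 tested members 35 were below 0 and 26 were called between animals, so unrelated members would often be alike in both. Whether neighbours were more alike than other pairs of members was not tested. In the pair on chromosome 5, peptidoglycan-recognition protein SC2-like LOC121415596 was at 46.54 to 60.20 CPM in secondary libraries and 54.27 to 94.61 CPM in primary libraries, while its neighbour LOC121415597, 19101 bases away, ran from 1.79 to 32.33 CPM and from 3.12 to 54.17 CPM. In the pair 6372 bases apart on chromosome 3, macrophage mannose receptor 1-like LOC121410597 had 38.01 to 53.63 CPM in secondary libraries and 24.82 to 47.67 CPM in primary libraries, and its neighbour LOC121410596 had the peak in animal 3 given above. Whether a pair's reads were shared between copies was not tested.

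**Figure D5:**
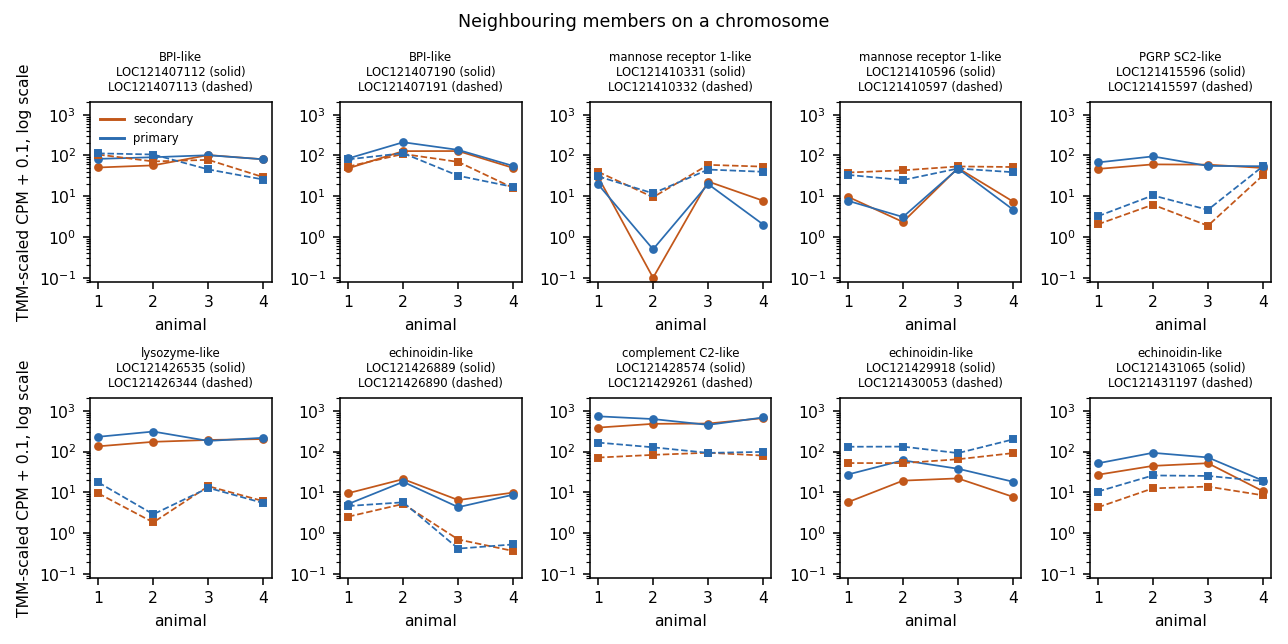
TMM-scaled CPM plus 0.1 (log axis) by animal for the 10 pairs of neighbouring tested members, with the first gene solid and the second dashed, secondary libraries in orange and primary libraries in blue, and lines that only join the values of a gene. LOC121410596 and LOC121410597 are both highest in animal 3 in both kinds of spine, LOC121410596 at 47.36 CPM or more there and below 10 CPM in the other animals, LOC121410597 between 24.82 and 53.63 CPM throughout.

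Markers of other cell types were summed beside these results. Of the 3 genes matched for coelomocytes only allograft inflammatory factor 1-like LOC121428596 could be tested, with 130.8, 108.2, 156.7 and 149.8 CPM in secondary libraries 1 to 4, against 199.4, 174.5, 210.6 and 189.8 CPM in primary libraries 1 to 4. The 3 genes together summed to 108.2 to 156.7 CPM in secondary libraries and 174.7 to 210.7 CPM in primary libraries. The groups of LOC121428596 do not overlap, and its log2 fold change was -0.51 ± 0.14 with an adjusted p of 0.0652 by edgeR, and -0.52 ± 0.09 with an adjusted p of 0.00639 with the block. Ciliated cell markers rose in secondary spines (56 of 66 tested), with summed levels of 6571 to 8437 CPM in secondary libraries and 1226 to 2570 CPM in primary libraries. Pigment cell markers (0 of 9 tested called) summed to 79.5 to 147.3 CPM in secondary libraries and 74.22 to 162.5 CPM in primary libraries. Skeletogenic markers (0 of 13) summed to 223.5 to 1407 CPM in secondary libraries and 195.9 to 1100 CPM in primary libraries. Muscle markers (2 of 11 called higher, and 3 higher and 1 lower with the block) summed to 1140 to 1687 CPM in secondary libraries and 1255 to 1769 CPM in primary libraries. Tropomyosin-like LOC121415027 alone had 753.9 to 1223 CPM in secondary libraries and 784 to 1237 CPM in primary libraries. Of the 2 higher calls, troponin T-like LOC121421391 had 6.46 to 42.08 CPM in secondary libraries and 0 to 1.29 CPM in primary libraries. Paramyosin-like LOC121426309 was the other, with a log2 fold change of 1.72 ± 0.29. The median log2 fold change of the muscle list was -0.05. Neuron markers (2 of 23 called higher and 1 lower, and 6 higher and 3 lower with the block) summed to 2128 to 2711 CPM in secondary libraries and 2724 to 3366 CPM in primary libraries. ELAV-like protein 3 LOC121423825 alone had 1061 to 1490 CPM in secondary libraries and 1687 to 2193 CPM in primary libraries, while the median log2 fold change of the neuron list was 0.36. The neuron list was matched by product name alone. Its lower call without the block was synaptotagmin-like protein 4 LOC121413911. Its higher calls without the block were CUGBP Elav-like family member 1 LOC121406326 and synaptotagmin-1-like LOC121410540. Whether each listed gene marks neurons in spines was not tested. Over all genes, 5.88% were called higher and 1.93% lower without the block, and 12.4% higher and 11.7% lower with it. The part of these markers in the members' differences was not tested.

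Of 89 other immune genes outside the name rule, 51 were tested. Without the block 0 were higher, where 5.88% of all genes were, and 1 was lower, where 1.93% of all genes were. The lower gene was macrophage migration inhibitory factor-like LOC121408816, with a log2 fold change of -1.52 ± 0.38 and an adjusted p of 0.0479 by edgeR. With the block 2 of the 51 were higher, where 12.4% of all genes were, and 7 were lower, where 11.7% of all genes were. Between animals 26 of the 51 differed, where 37.0% of all genes did. The median log2 fold change of the 51 was -0.07, beside -0.38 for the 50 tested members, and that difference was not tested. Many of the 51 share a single product name, sushi, von Willebrand factor type A, EGF and pentraxin domain-containing protein 1-like. So do most of the 7 genes lower with the block, and the median is not that of a broad immune list. LOC121428596, given above as a coelomocyte marker, is also among the 51.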

How the data were processed

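The 8 libraries were grouped by their titles. Spine RNA was taken up in TriZol and its poly-A part captured on beads, per the labels' protocols. The protocol text leaves unsaid whether the libraries marked the strand. HISAT2 2.0.5 and featureCounts are named in the submitters' processing notes, while assembly 3.0 is named in the design text. The authors deposited whole-number read counts per gene for 26814 genes, with product names, domains and matches. The deposited FPKM were not used. Each of the 26814 genes had the same ID and span in the reference table of Lvar_3.0. Members, lists, roles and tests were chosen with earlier results of these data known.

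Counts were tested with edgeR 4.0.16 in R 4.3.3 (quasi-likelihood, robust, TMM scaling, filterByExpr, two-sided), with group as the only term, on 16788 genes. Calls have a Benjamini-Hochberg adjusted p below 0.05 over all genes tested. Fold changes are secondary over primary, and each SE is the size of the log2 fold change over the root of its F. CPM are TMM-scaled, and RPKM divide them by the deposited gene length. Per the design text, primary and secondary spines were taken from 4 individuals. Libraries with the same number deviated together from their group means (correlations of 0.733 to 0.811) and others did not (-0.317 to -0.200), so the numbers were taken as animals, as a block in an alternative fit and as 3 terms in an F test. Ratios of reads have 95% exact intervals. DESeq2 1.42.0 was an alternative. The fits were also run on simulated counts. The simulated counts for the kinds of spine held no animal effect, so they cannot show how the fit without the block treats paired libraries. Named genes were, within each role, up to 5 per direction called without the block, up to 3 per direction called with the block only, and the 3 with the highest mean RPKM, and up to 6 for the animal comparison. Exceptions are marked as named after their values were seen. No protein or promoter sequence was used here.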

Additional observations from a re-analysis of the deposited data

Results flagged for a closer look

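Single libraries stood apart from the other 3 of their group for 9 of 58 sets of 4 values, judged by the gap to the nearest value over the range. Chance gives about 1 in 20, but the sets are those of the named genes, which include 6 chosen for differing between animals, so the number of these cases is not to be read against it. In animal 3, macrophage mannose receptor 1-like LOC121406086 had 30.29 CPM in the secondary library and 48.52 CPM in the primary library, and LOC121410596 had 48.96 CPM in the secondary library and 47.36 CPM in the primary library. In animal 4, peptidoglycan-recognition protein LB-like LOC121415597 had 32.33 CPM in the secondary library and 54.17 CPM in the primary library. For these 3 genes both libraries of the animal stood apart. Secondary library 2 stood apart for echinoidin-like LOC121430888, at 98.44 CPM. Primary library 4 stood apart for complement C3-like LOC121417165, at 1656 CPM, the lowest of the 4. Secondary library 3 stood apart for galectin-3-binding protein B-like LOC121410506, at 0.497 CPM, which rests on 5 reads.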

How the results depend on the processing

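Without the block, 2 members were higher in secondary spines and 3 lower. The replicate block gave 4 higher and 14 lower, DESeq2 gave 5 lower, DESeq2 with the block 5 higher and 17 lower, a gene length correction 5 lower, and that correction with the block 4 higher and 18 lower. Library size alone gave 0 lower, and no filter on low counts gave 1 higher and 0 lower. Leaving out 1 library gave 1 to 2 higher and 0 to 2 lower, while lower calls over all genes ran from 158 to 254. With the block, leaving out animal 1, 2, 3 or 4 gave 9, 12, 9 and 13 lower, and 2 to 5 higher. The cause of these shifts was not tested, except that leaving out a library leaves fewer samples. The 26 calls between animals ranged from 22 to 31 under the alternatives tried. Among named genes called between the kinds of spine in any fit 1 changed sign, LOC121415597 (-0.85 with the block and 0.81, not called, without primary replicate 4). The log2 fold changes of LOC121406086 and LOC121410596, called only between animals, also changed sign in some fits, without a call. Over all genes the library size alone moved the median log2 fold change to 0.14 and the length correction to -0.16, beside -0.03 as reported. Depth limits the 49 untested members, whose reads were at most 204 in all.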
